A study of Mus musculus with 6 samples.

Results

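Genes of mitochondrial protein import and folding were followed in the retina of mouse embryos that had lost the transcription factor Ronin, the product of Thap11. Members were taken by gene symbol: genes named for the outer membrane translocase (Tomm genes) and for the inner membrane translocases and their chaperones (Timm genes). The members also included Samm50, Mtx1, Mtx2, Hspa9, Hspd1, Hspe1, Grpel1, Grpel2, Pmpca, Pmpcb, Dnajc19, Chchd4 and Gfer. The table of 23441 genes holds 36 of them, with Fxc1 listed under its other symbol Timm10b, and 35 had enough reads to be tested. Tomm20l, a paralog of the receptor gene Tomm20, was not tested, with 0, 1 and 1 reads in the controls and 1, 1 and 3 reads in the conditional knockout (CKO).

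Polyadenylated RNA of dissected retinae was sequenced at embryonic day 14.5 in 3 control and 3 CKO libraries. Controls had the genotype Ronin flox/flox and no Cre transgene. CKO retinae had the same floxed alleles and were Chx10-Cre::GFP +/tg. The transgene drives Cre in retinal progenitor cells, so cells of other origin in the dissected tissue keep Thap11. Both genotypes had a mixed background that joined FVB and 129/Sv with SJL/B6 and C57/B6. Nothing in the labels says whether replicates were separate animals or litters, and the p-values cover no more than the variation among the 6 libraries, some of which may be technical.

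Most mitochondrial proteins are made in the cytosol and pulled into the organelle as unfolded chains. Precursors cross the outer membrane through the TOM pore, and are then sorted: beta-barrel proteins go to the sorting and assembly machinery, cysteine-rich small proteins to the disulfide relay of the intermembrane space, carriers to the TIM22 translocase, and presequence proteins to the TIM23 translocase and its motor. In the matrix the presequence is cut off and chaperonins fold the product. Ronin is known as a regulator of genes that serve mitochondrial function, which is the background to the comparison.

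The libraries held 23721052 to 28504391 counted reads. Thap11 was examined first as a check of the labels. The control libraries had 68.3, 82.0 and 71.6 CPM (counts per 1000000 reads of the scaled library size) and the CKO libraries 11.2, 10.9 and 6.38 CPM. On the log2 scale it fell by 2.96 ± 0.24 (SE), with adjusted p = 0.00425 by the edgeR quasi-likelihood test, adjusted over all tested genes by Benjamini-Hochberg. All 14 neural retina markers were detected, with a summed level of 4601 to 4905 CPM in the controls and 4910 to 4951 CPM in the CKO. The 14 lens markers summed to 11.9 to 18.9 CPM in the controls and to 9678, 63.8 and 696 CPM in CKO replicates 1 to 3, with 1 marker at 0 in all controls and 0 markers called. Blood vessel markers (7 genes) summed to 273 to 329 CPM in the controls and 242 to 262 CPM in the CKO. Pigment epithelium markers (8 genes) summed to 80.5, 45.7 and 38.5 CPM in control replicates 1 to 3 and to 34.0 to 39.7 CPM in the CKO. Erythroid markers (6 genes, with Hba-a2, Hbb-b1 and Hbb-b2 at 0 in all libraries) summed to 4.49 to 6.33 CPM in the controls and 2.28 to 4.29 CPM in the CKO. Summed periocular mesenchyme markers (8 genes) stood at 191 CPM in control replicate 2 and at 58.4 to 82.5 CPM in the other libraries. The part of these cell types in the differences between genotypes was not tested. In bulk tissue, fewer cells of a type and less RNA per cell cannot be told apart.

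No import gene passed the test in the CKO retina: 0 of 35 rose and 0 of 35 fell, where 0.897% of all 14609 tested genes were called in either direction. Adjusted p values of the members ran from 0.396 to 0.99989 (edgeR). Their median log2 fold change was -0.03, the same as that of all tested genes to 2 decimals, and 31 of 35 lay within 0.25 of zero on the log2 scale, against 68.3% of all tested genes. At an unadjusted p under 0.05 there were 3 members (Timm22, Timm21 and Chchd4), or 8.57% of the tested members, where the share over all tested genes was 6.58%. DESeq2's Wald test and limma-voom likewise called 0 members.

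The intervals set limits on what could have gone unseen. For 33 of 35 members the 95% interval of the log2 fold change, taken gene by gene without adjustment, lay inside a 2-fold change in either direction. The exceptions were Timm13, at -1.41 to 0.05, and Timm21, at -1.25 to -0.07. Among all tested genes 77.0% had an interval inside those limits.

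**Figure D1:**
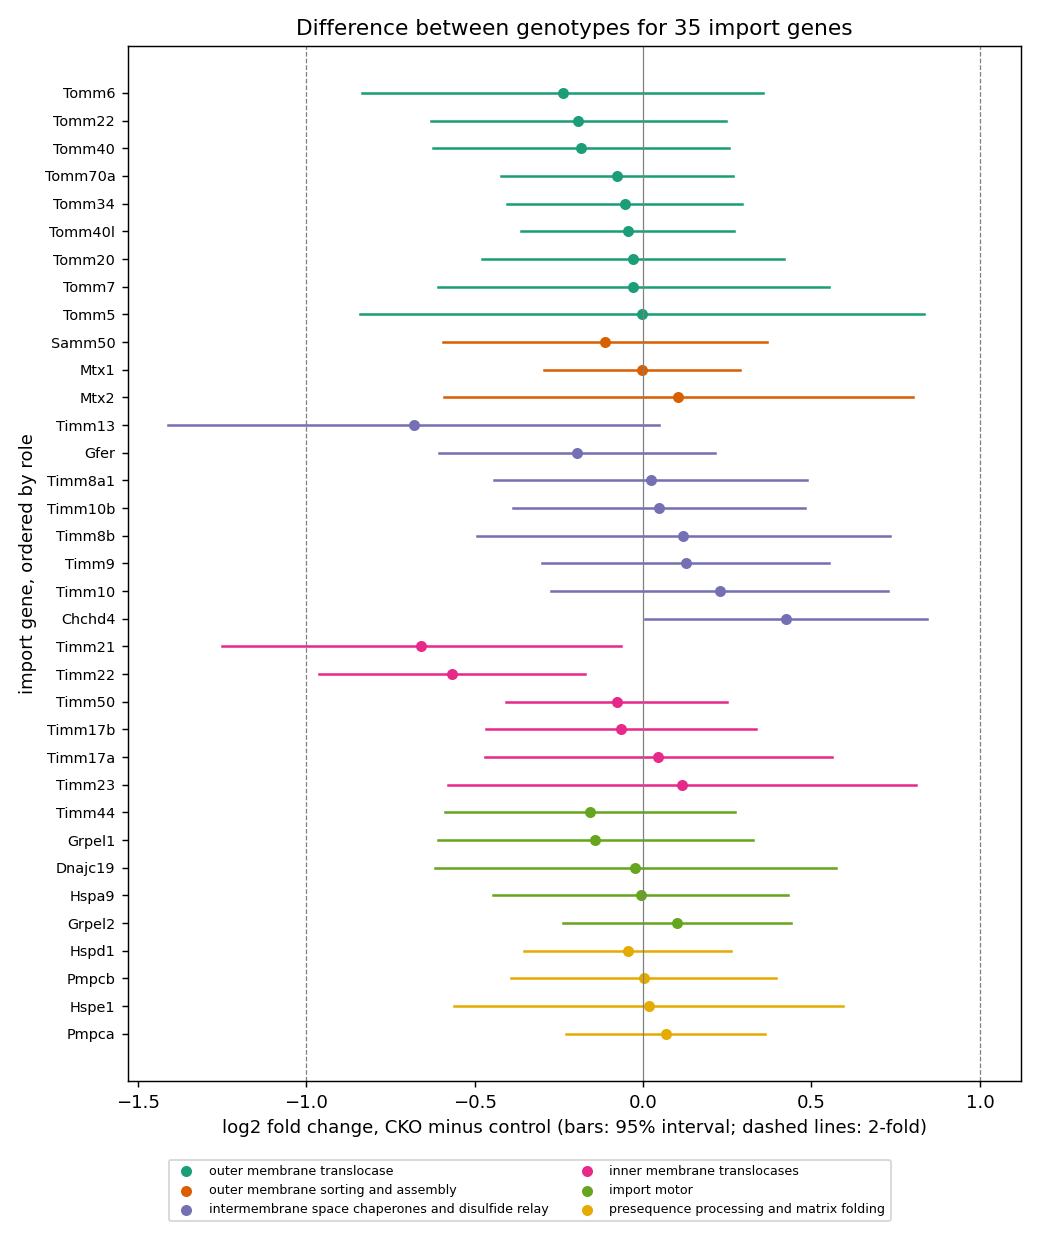
Log2 fold change (CKO minus control) of the 35 tested import genes, coloured by role, with 95% intervals as bars and 2-fold changes as dashed lines. The intervals of Timm21, Timm22 and Chchd4 exclude zero before adjustment, and those of Timm13 and Timm21 reach past the 2-fold line.

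The genotypes were fully separated in 2 members, with the CKO libraries of Timm22 below all controls and those of Chchd4 above all controls. This is 5.71% of the tested members, against 12.6% of all tested genes, of which 6.91% had the CKO below and 5.74% had it above. The count rested on single controls. Without control replicate 1 it was 17 members (48.6%, against 34.8% of all tested genes), 15 with the CKO above and 2 below. Without control replicate 3 it was 11 (31.4%, against 27.2%), 10 with the CKO below and 1 above, so the direction turned with the control left out. Without control replicate 2 it was 6 (17.1%, against 25.8%), 4 with the CKO above and 2 below. Timm22 and Chchd4 were among the separated members each time. Timm22 encodes the channel of the carrier translocase of the inner membrane. Its level was 47.7, 37.95 and 33.5 CPM in control replicates 1 to 3 and 29.2, 25.2 and 26.01 CPM in CKO replicates 1 to 3. The lowest control was thus above the highest CKO library. The log2 fold change was -0.57 ± 0.17 (SE), a 1.48-fold lower fitted level that did not pass the test over all genes (edgeR adjusted p = 0.396).

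Chchd4 is the oxidoreductase that receives cysteine-rich proteins in the intermembrane space. Control libraries had 27.3, 18.7 and 19.9 CPM and CKO libraries 29.9, 27.7 and 30.8 CPM. Control replicate 1 came close to the lowest CKO library, and the other controls lay well below. The log2 fold change was 0.42 ± 0.18 (SE), 1.34-fold (edgeR adjusted p = 0.744). Without CKO replicate 1, the library with the highest lens marker level, the log2 fold changes were -0.63 for Timm22 and 0.41 for Chchd4.

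The promoters of the members were searched for ACTACANNNCCC on both strands, letters taken from the core of the element linked to Ronin and its partner ZNF143. RefSeq windows (GRCm38.p6) from 250 bases before to 50 bases after the annotated start were held for 31 of the 36 members. Those of Grpel2, Hspa9, Timm21, Tomm40l and Tomm7 were not searched. The motif was found in 2 of the 31, Timm22 and Chchd4, which are also the 2 members whose groups did not overlap. Among all 27025 genes with a RefSeq window 2.41% held it, as did 2.09% of 32851 windows. Among tested genes the share was 5.03% of 10704 with a window, against 2 of 30 tested members (6.67%), so the share of the members was near that of tested genes. The 250 bases before the start are shown for both genes, 5′ to 3′ on the gene's strand, because they carry the only matches among the members. Capitals mark the motif, which reads in reverse complement where the match is on the opposite strand.
Timm22 (GRCm38.p6, plus strand, chr11:76406675-76406924): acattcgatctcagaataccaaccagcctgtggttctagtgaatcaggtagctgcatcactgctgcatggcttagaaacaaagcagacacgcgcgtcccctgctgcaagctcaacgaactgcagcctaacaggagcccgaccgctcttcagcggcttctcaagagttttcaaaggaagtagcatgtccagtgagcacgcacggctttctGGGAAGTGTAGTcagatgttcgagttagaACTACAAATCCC
Chchd4 (GRCm38.p6, minus strand, chr6:91473424-91473673): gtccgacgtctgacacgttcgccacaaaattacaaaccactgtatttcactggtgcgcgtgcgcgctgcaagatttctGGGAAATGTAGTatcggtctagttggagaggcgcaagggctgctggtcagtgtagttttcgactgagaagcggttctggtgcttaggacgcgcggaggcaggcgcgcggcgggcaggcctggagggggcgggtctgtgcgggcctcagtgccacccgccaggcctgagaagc

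Timm22 held 2 matches in this window, ACTACACTTCCC on the opposite strand from 41 to 30 bases before the start and ACTACAAATCCC on the gene's strand from 12 to 1 bases before it. RefSeq has a further start for Timm22 downstream, from which the latter match lies 230 to 219 bases upstream. Chchd4 held 1 match, ACTACATTTCCC on the opposite strand, from 172 to 161 bases before the start. A match is a description of these letters and not a measured binding site.

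The motif was also set beside the genotype difference over all tested genes with a promoter window. Of 538 with the motif, 71 were called lower (13.2%) and 8 higher (1.49%), against 12 lower (0.118%) and 11 higher (0.108%) of 10166 without it. Groups did not overlap with the CKO below in 31.8% of genes with the motif and 5.42% of those without, and with the CKO above in 15.1% and 5.31%. In either direction this was 46.8% of the genes with the motif. These are counts without a test of their own. Timm22 and Chchd4 are among the motif genes that were separated but not called.

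**Figure D2:**
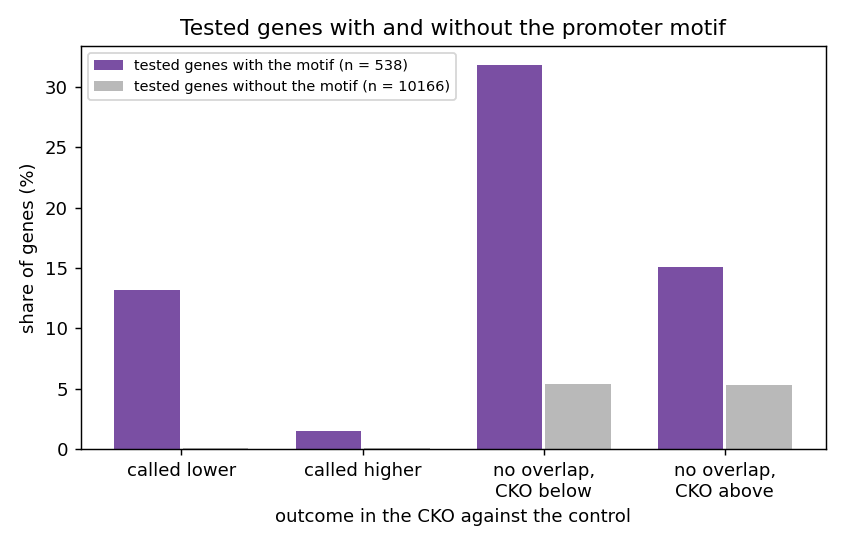
Share of tested genes (%) called lower or higher in the CKO (edgeR, adjusted p under 0.05), or with no overlap between groups, for 538 genes with ACTACANNNCCC in the promoter window and 10166 genes without it. The bars for genes with the motif are the taller in each of the 4 classes, with 13.2% called lower against 0.118%.

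At the outer membrane the translocase genes gave small differences. Log2 fold changes of the 9 tested members lay between -0.24 (Tomm6) and -0.00265 (Tomm5), with a median of -0.05. The 9 include Tomm34, grouped here by its name, and 0 of 9 passed. Tomm70a, a receptor for carrier precursors, had 245, 185 and 203 CPM in the controls and 215, 194 and 191 CPM in the CKO. The receptor Tomm20 had 131, 79.8 and 94.0 CPM against 106, 94.0 and 98.4 CPM. For both receptors the CKO values lay inside the range of the controls.

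Tomm40, the channel itself, had 91.7, 128 and 78.7 CPM in the controls and 87.6, 84.9 and 90.3 CPM in the CKO. The small subunits that brace the pore varied most among the controls. Tomm5 had 28.2, 10.2 and 12.7 CPM there and 19.0, 15.7 and 16.2 CPM in the CKO, so that its controls spanned 2.77-fold and its CKO libraries 1.21-fold. Tomm6 had 50.3, 73.6 and 34.4 CPM in the controls and 45.04, 44.9 and 44.3 CPM in the CKO. Tomm7, Tomm22, Tomm34 (a cytosolic co-chaperone) and Tomm40l had fold changes within the range given above.

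In the sorting and assembly machinery, which inserts beta-barrel proteins, 0 of 3 members passed. Samm50, its central barrel, had 122, 186 and 109 CPM in the controls and 128, 125 and 132 CPM in the CKO. The metaxin gene Mtx1 was the steadiest control measurement of all members, at 37.8, 41.4 and 39.4 CPM against 38.2, 40.8 and 39.3 CPM in the CKO. Mtx2, encoding its partner, was among the least steady, at 95.4, 37.6 and 60.6 CPM in the controls and 72.4, 67.0 and 68.8 CPM in the CKO.

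Among 8 genes of the intermembrane space, 0 passed and the median log2 fold change was 0.08. Timm13, a small chaperone that escorts hydrophobic precursors, had the largest difference of all members, at 83.3, 136 and 52.4 CPM in the controls and 61.6, 51.0 and 57.2 CPM in the CKO. Its log2 fold change was -0.68 ± 0.31 (SE, edgeR adjusted p = 0.803), and -0.25 without control replicate 2, the highest library. Timm8b, which belongs with Timm13 in this family, had 35.6, 17.5 and 20.7 CPM against 29.3, 24.5 and 26.4 CPM. The CKO libraries of Timm8b lay inside the controls.

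The small chaperones that hand carriers to Timm22 overlapped between genotypes. Timm9 had 23.8, 19.2 and 15.6 CPM in the controls and 20.2, 22.1 and 21.6 CPM in the CKO (log2 fold change 0.13 ± 0.18, SE). Timm10, which forms a complex with Timm9, had 16.6, 11.8 and 9.78 CPM against 15.9, 14.5 and 14.4 CPM (0.23 ± 0.22). Without control replicate 1 the log2 fold changes were 0.29 for Timm9 and 0.47 for Timm10, and without control replicate 3 they were 0.019 and 0.099. Timm10b had 19.6, 14.003 and 13.8 CPM against 15.2, 16.1 and 17.7 CPM. The values of Timm8a1 overlapped as well. Gfer, the sulfhydryl oxidase that recharges Chchd4, had 30.9, 37.2 and 24.4 CPM in the controls and 27.5, 26.8 and 26.5 CPM in the CKO. Its CKO libraries lay inside the control range.

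**Figure D3:**
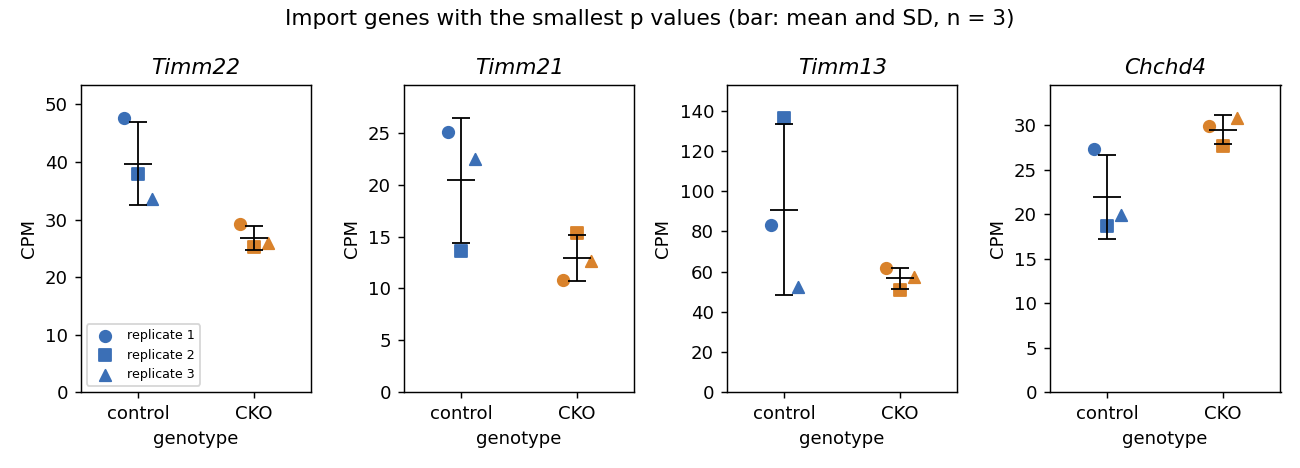
Level in CPM of the 4 import genes with the smallest p values in each library, with the replicate number as symbol and the mean and SD (n = 3 per genotype) as bars. Timm22 and Chchd4 do not overlap between genotypes, whereas Timm21 and Timm13 each have a control among the CKO values.

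In the inner membrane translocases 0 of 6 members passed. Timm21, a TIM23 subunit that contacts the respiratory chain, had 25.1, 13.6 and 22.5 CPM in the controls and 10.8, 15.3 and 12.7 CPM in the CKO. Control replicate 2 lay among the CKO values and the other controls above them. Its log2 fold change was -0.66 ± 0.26 (SE, edgeR adjusted p = 0.671), and without control replicate 2 it was -0.87, still past no threshold (edgeR adjusted p = 0.0860, with 0.0860 to 0.99988 over all alternatives). Timm50, the presequence receptor, had 104, 121 and 91.4 CPM in the controls and 100.1, 102 and 98.4 CPM in the CKO.

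The channel gene Timm23 had 21.2, 8.90 and 11.99 CPM in the controls and 15.5, 15.0 and 15.2 CPM in the CKO. Its paired subunits Timm17a (18.5, 11.4 and 12.1 CPM against 16.2, 13.0 and 14.2 CPM) and Timm17b (58.2, 48.7 and 39.7 CPM against 47.9, 42.6 and 49.7 CPM) overlapped between genotypes too. Per kilobase of merged exon, Timm17a stood at 0.0926 ± 0.0146 of Timm17b in the controls and 0.100 ± 0.00841 in the CKO (SD, n = 3 each).

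In the import motor, which pulls chains into the matrix, 0 of 5 members passed and log2 fold changes lay between -0.16 (Timm44) and 0.10 (Grpel2). Hspa9, the matrix Hsp70 that drives the motor, had 262, 369 and 229 CPM in the controls and 297, 279.97 and 279 CPM in the CKO. Its membrane anchor Timm44 had 62.9, 90.8 and 58.5 CPM against 63.3, 62.2 and 64.7 CPM. Control replicate 2 was the highest library for both.

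The nucleotide exchange factor genes were measured side by side, Grpel1 at 69.7, 58.8 and 41.5 CPM in the controls and 53.8, 46.9 and 53.4 CPM in the CKO, and Grpel2 at 41.5, 31.9 and 36.5 CPM and 39.3, 37.9 and 40.9 CPM. Per kilobase Grpel1 was 2.97 ± 0.710 times Grpel2 in the controls and 2.50 ± 0.125 times in the CKO (SD, n = 3 each), and the ranges overlapped. Dnajc19, a J protein of the motor, was the lowest tested member, with 66 to 109 reads a library. It had 4.28, 2.88 and 3.05 CPM in the controls and 2.67, 3.47 and 3.93 CPM in the CKO.

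Presequence processing and folding gave the narrowest differences, with 0 of 4 members called and log2 fold changes from -0.05 (Hspd1) to 0.07 (Pmpca). Pmpca and Pmpcb encode the subunits of the processing peptidase. Pmpca had 129, 154 and 133 CPM in the controls and 143, 146 and 146 CPM in the CKO. Pmpcb had 91.6, 65.8 and 64.0 CPM and 76.8, 70.0 and 74.8 CPM. Neither left the control range.

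The chaperonin genes Hspd1 and Hspe1 (Hsp60 and its lid Hsp10), which are transcribed away from each other from overlapping promoter windows, are the textbook reporters of protein folding stress in the matrix. Hspd1 had 213, 205 and 172 CPM in the controls and 193, 190.3 and 188 CPM in the CKO, with a 95% interval of -0.35 to 0.26 on the log2 scale. Hspe1 had 59.1, 38.1 and 29.0 CPM and 41.3, 43.0 and 43.4 CPM, with an interval of -0.56 to 0.59. The ratio of Hspd1 to Hspe1 per kilobase was 2.77 ± 0.681 in the controls and 2.50 ± 0.0987 in the CKO (SD, n = 3 each). Both genes have processed pseudogene copies, among which reads may have been divided.

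Per kilobase of merged exon (GENCODE M21), the highest levels in the controls were those of Hspd1, Hspa9 and Timm13, at 74.4 ± 8.23, 66.5 ± 17.0 and 66.2 ± 31.0 CPM per kilobase. Timm8b (47.5 ± 18.6), Tomm6 (46.7 ± 17.4) and Timm50 (39.4 ± 5.60) followed, and these neighbours did not differ beyond their SD (n = 3). In the CKO the leading order was Hspd1 at 72.0 ± 0.947, Hspa9 at 66.2 ± 2.41, Timm8b at 51.6 ± 4.59 and Timm13 at 41.3 ± 3.87 CPM per kilobase. The lowest tested levels were 0.845 ± 0.190 for Dnajc19 and 1.78 ± 0.497 for Timm17a in the controls. Merged exons include rarely used ones, which can lower the value of genes with long merged exons such as Tomm70a and Timm17a.

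The controls varied more than the CKO libraries in these genes. In 35 of 35 tested members the SD of log2 CPM was larger among the controls, as it was in 87.5% of all tested genes. The median SD of the members was 0.340 in the controls and 0.0568 in the CKO, against 0.326 and 0.0980 over all tested genes. In 30 of 35 members all 3 CKO values lay between the lowest and the highest control, which was so for 52.6% of all tested genes. The other 5 were Timm22, Chchd4, Timm21, Timm13 and Dnajc19.

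**Figure D4:**
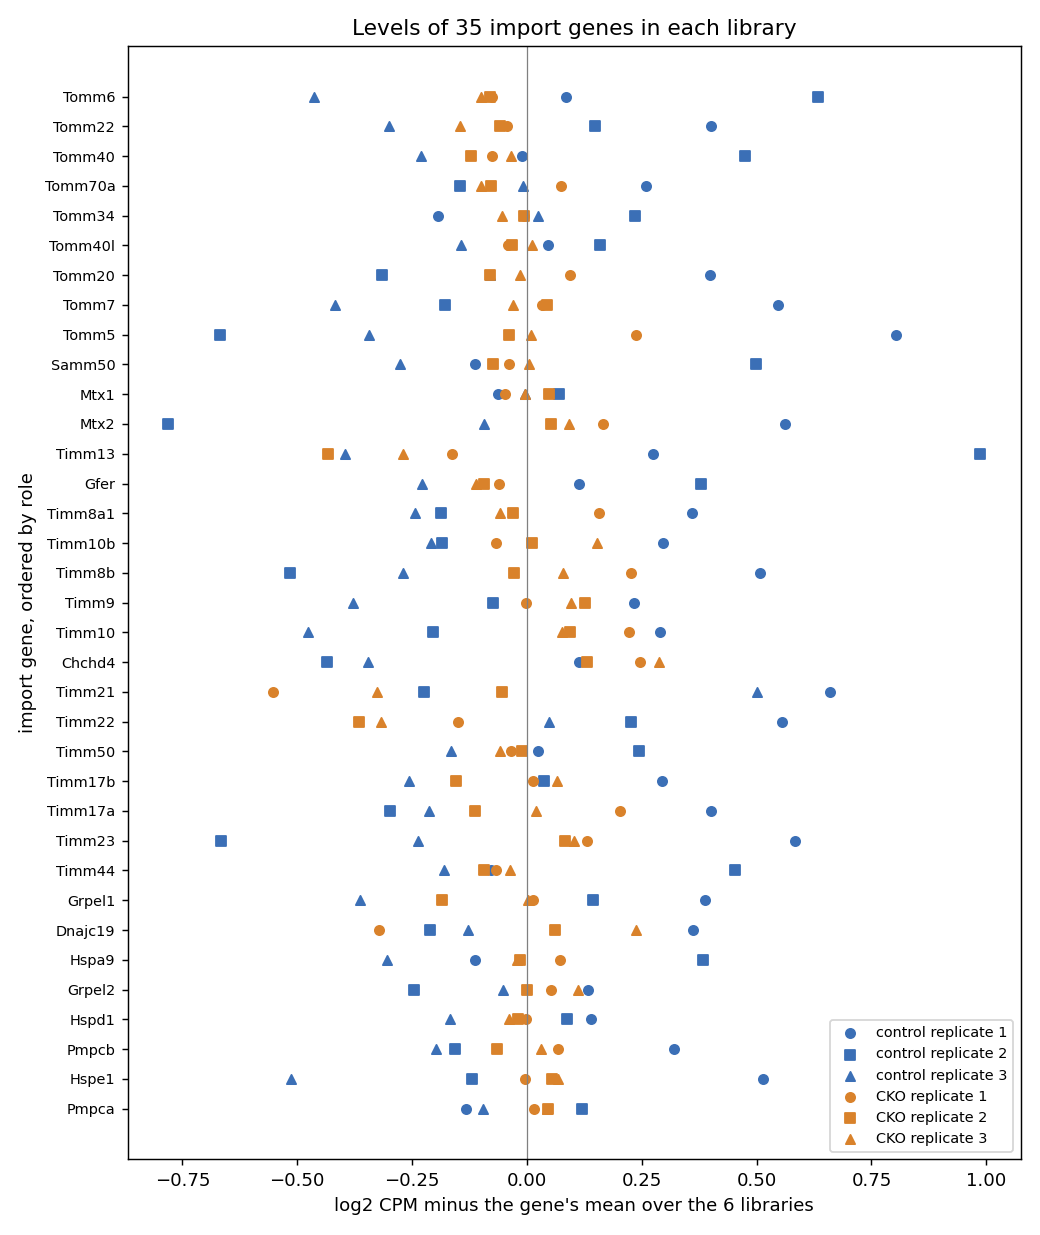
Log2 CPM of each tested import gene in each library, minus the gene's mean over the 6 libraries, with genotype as colour and replicate as symbol. CKO libraries cluster near zero, whereas control replicates 1 and 2 hold the highest control value of 23 and 12 members and control replicate 3 of none.

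The spread of the controls was not shared evenly among the members. Among the controls, replicate 1 was the highest for 23 members and replicate 2 for 12, while replicate 3 was the lowest for 21 and replicate 2 for 11. On the log2 scale the median member lay at 0.29, -0.07 and -0.23 from its mean over the 6 libraries in control replicates 1, 2 and 3, while all tested genes together had medians of 0.01 to 0.02 in these libraries. The sum over all members was 2440.2, 2435 and 1912 CPM in the controls and 2208, 2106 and 2144 CPM in the CKO.

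Base composition of the transcripts moved with the place of control replicate 2. The difference between control replicate 2 and the mean of the other controls had a Pearson correlation of 0.60 and a Spearman correlation of 0.66 with the G and C content of the longest coding transcript over 35 members, and of 0.58 and 0.59 over 13816 tested genes with a value. These are correlations across genes, which share the 3 libraries and are not replicates. The 16 members above the other controls in that library had a median G and C content of 52.3%, and the 19 below it 46.0%. Timm13 (58.2%), Tomm6 (52.9%) and Samm50 (52.5%) were high in it, and Mtx2 (43.7%) and Timm21 (41.8%) were low. Other members followed the trend less closely. Tomm5 (47.2%) and Timm23 (49.1%) were lower in it than Timm21, at -0.89 and -0.83 against -0.80 on the log2 scale. Hspa9 (45.9%) was high in it, at 0.59, and Mtx1, with the highest G and C content (61.7%), lay at 0.10. The difference between control replicates 1 and 3 correlated with the log2 of merged exon length instead, at a Pearson value of -0.59 over the members and -0.33 over 13818 genes. The part of either feature in the genotype differences was not tested.

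**Figure D5:**
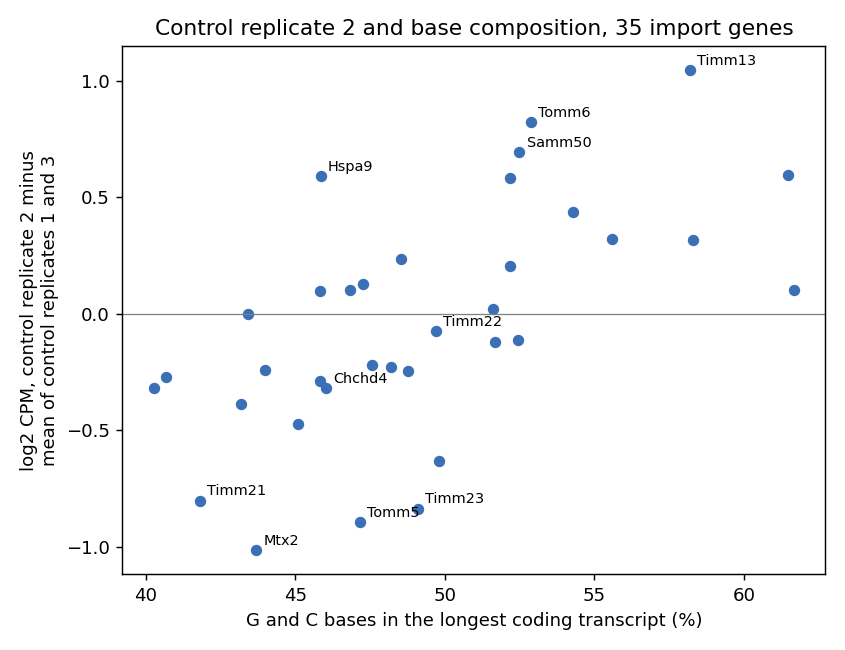
Difference in log2 CPM between control replicate 2 and the mean of control replicates 1 and 3 against the percentage of G and C bases in the longest coding transcript, 1 point per tested import gene. Members with more G and C bases tend to lie higher, from Timm21 and Mtx2 at the lower left to Timm13 near the upper right.

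The wider machinery of import, proteolysis and membrane shape was examined through 44 further genes, all of which were tested. Of these 0 rose and 0 fell, beside the 0.897% called over all genes, and the median log2 fold change was 0.06. The groups did not overlap in 3 of 44, or 6.82%, all with the CKO above, where 12.6% of all tested genes did not overlap in either direction and 5.74% had the CKO above. They were Htra2, Oma1 and the insertase gene Oxa1l (81.5, 70.6 and 80.8 CPM against 82.9, 81.7 and 86.5 CPM). Oma1 and Oxa1l are named because the count was small, after their values were seen.

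Htra2, a serine protease of the intermembrane space, had the largest positive difference of the list, at 22.0, 31.9 and 26.9 CPM in the controls and 43.0, 47.8 and 49.2 CPM in the CKO. Its log2 fold change was 0.79 ± 0.17 (SE), 1.73-fold, with an edgeR adjusted p = 0.133. DESeq2's Wald test called it (adjusted p = 0.00227), as did edgeR without control replicate 2 (0.0239), and adjusted p over all alternatives ran from 0.00227 to 0.602. Oma1, a stress-activated protease of the inner membrane, had 8.28, 7.11 and 6.85 CPM against 9.35, 9.33 and 9.41 CPM (log2 fold change 0.34 ± 0.16, edgeR adjusted p = 0.845). The largest negative difference was that of Romo1, a small inner membrane protein, at 20.8, 30.1 and 11.7 CPM in the controls and 16.1, 15.2 and 14.7 CPM in the CKO. Its groups overlapped (log2 fold change -0.45 ± 0.31, edgeR adjusted p = 0.929), and the value was -0.072 without control replicate 2 and -0.70 without control replicate 3.

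Regulators and targets of the mitochondrial unfolded protein response were in the same list. The regulator gene Atf5 had 53.7, 115 and 49.8 CPM in the controls and 81.1, 82.1 and 72.8 CPM in the CKO, with a log2 fold change of 0.11 ± 0.31. Without control replicate 2 it was 0.62 and passed the test (edgeR adjusted p = 0.0445), whereas it was -0.069 without control replicate 1 and -0.066 without control replicate 3 (edgeR adjusted p = 0.916 and 0.957). The other listed regulators, Atf4, Ddit3 and Hsf1, had log2 fold changes of 0.06, 0.06 and 0.36 over all libraries. None was called (edgeR adjusted p = 0.961, 0.978 and 0.908). Atf5, Lonp1 and Clpp were singled out after their values were seen. Lonp1, the matrix protease, had 127, 298 and 132 CPM against 135, 139 and 150.5 CPM, again with control replicate 2 apart. The protease subunit gene Clpp had 44.8, 58.1 and 36.8 CPM against 59.2, 52.9 and 57.6 CPM, and its groups overlapped. The motif of Timm22 and Chchd4 was in 5 of 37 promoters held for this list (Chchd3, Chchd6, Clpp, Dnaja3 and Phb), a share of 13.5% against 5.03% of tested genes. The groups did not overlap in 0 of these 5, against 46.8% of all tested genes with the motif.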

How the data were processed

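Polyadenylated RNA of dissected retinae was analysed in 3 control and 3 CKO libraries, grouped by sample title. The authors deposited raw read counts per gene symbol. The tools named, per the submitters' processing notes, were HTSeq 0.5.4p3, BWA 0.7.6a-r433 and DESeq 2.13, with build mm9. The annotation and strand setting were not given in the sources used here. How reads of overlapping genes were assigned is therefore not known. The table's 4 non-data lines were skipped, 1 gene listed again with identical counts was kept once, and 0 rows named no gene.

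For the genotype comparison (edgeR 4.0.16 in R 4.3.3), filterByExpr with a minimum count of 10 kept 14609 genes. TMM factors scaled the libraries, and the test was the quasi-likelihood F test with Benjamini-Hochberg adjustment over all tested genes (threshold 0.05). Each SE was obtained as the size of the log2 fold change over the root of its F value. The pipeline was tested on simulated data. Alternatives were other scalings, other low-count filters, a stricter threshold, a replicate block, leaving out each library, DESeq2 1.42.0 and limma-voom (limma 3.58.1). A leave-one-out of the non-overlap count was added after seeing the data. No libraries agreed within sampling noise (chi-square per degree of freedom at least 5.13). Same-numbered libraries did not deviate together in every pair.

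Members, related genes and the naming rule were chosen with earlier results of these data known. The rule named the 3 largest differences each way, the member with the highest CPM in each role and those without overlap. SE and adjusted p are not given for every member so named. Lengths and G and C content came from GENCODE M21 and promoters from RefSeq, both GRCm38, so they are not the counts' build.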

Additional observations from a re-analysis of the deposited data

How the results depend on the processing

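Under all 14 alternatives 0 import genes were called, and under the 13 that refit the data their median log2 fold change lay between -0.09 and 0.04, within the spread between libraries. The number of calls over all genes, 131, became 326 with DESeq2's Wald test, 39 at an adjusted p threshold of 0.01 and 16 to 219 when single libraries were left out (219 without control replicate 2 and 33 without control replicate 3; in the CKO, 41, 53 and 16 on leaving out replicates 1, 2 and 3). Calls among the 44 related genes went from 0 to 1 with DESeq2 (Htra2) and to between 0 and 2 when single libraries were left out, with Htra2 and Atf5 called without control replicate 2. The count of members without overlap, 2, lay between 2 and 17 when single libraries were left out, a check chosen after seeing the data: 17 without control replicate 1 (48.6%, against 34.8% of all tested genes), 11 without control replicate 3 (31.4% against 27.2%), 6 without control replicate 2 (17.1% against 25.8%) and 3 without CKO replicate 2 (8.57% against 15.9%). Of the 17 members, 15 had the CKO above, whereas 10 of the 11 had it below. Such a count has fewer libraries to separate once 1 is left out, and the cause of the changes was not tested.

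Named members whose value changed sign had log2 fold changes near zero. Hspa9, at -0.0065, was 0.012 with DESeq2 size factors, 0.078 with library sizes alone, 0.012 with DESeq2's Wald test, 0.023 with limma-voom, 0.023 with the replicate block and -0.11 to 0.23 without single libraries. Hspd1 was 0.029 and Timm50 0.0012 with library sizes alone. Without single libraries Hspd1 ranged from -0.10 to 0.015, Samm50 from -0.22 to 0.17, Timm50 from -0.14 to 0.046 and Tomm70a from -0.15 to 0.043. Timm22, Timm21, Timm13, Chchd4, Timm9 and Timm10 kept their sign in all 14 alternatives.

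With the replicate number as a block, 153 genes and 0 members were called. Deviations of same-numbered libraries correlated at 0.34, 0.11 and -0.0077 for replicates 1 to 3, and those of other pairs at -0.25 to 0.20. Whether same-numbered libraries were paired cannot be told from these values or from the labels. Not every library correlated best with its own number. Tested members had 66 or more reads in every library, whereas Tomm20l could not be tested at this depth.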
